A study of Drosophila melanogaster with 4 samples.

Results

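The euchromatin of chromosome arm 3L of Drosophila melanogaster was described here from enriched regions of H3K27me2, histone H3 dimethylated at lysine 27. All regions on 3L were taken whose midpoint lay outside the last 2 Mb of the arm, the stretch next to the centromere. These were 1766 of the 10114 regions of replicate 1 (17.5%), 1826 of the 10115 of replicate 2 (18.1%) and 2743 of the 16728 of the list deposited for the whole series (16.4%). The stretch so defined was 22543557 bp long, from the distal end of the arm at base 1. Positions are 1-based on FlyBase release 5, per the file headers.

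Chromatin immunoprecipitation and sequencing (ChIP-seq) was done on nuclei of heads from wild-type Oregon-R flies, staged as mixed adults, with the antibody Ab24684. The group held 2 ChIP replicates, each with an input, chromatin that was not precipitated. Whether each replicate is a collection of flies of its own is not in the labels, and the SD between them may therefore measure technical spread only. The labels name no treatment or mutant, and heads hold several cell types, so that a weak mark in all nuclei and a strong one in few cannot be told apart.

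H3K27me2 is made by Polycomb repressive complex 2, whose catalytic subunit in flies is Enhancer of zeste. The same enzyme adds the first and the last methyl group to this lysine. The trimethylated form marks silent developmental genes bound by Polycomb proteins, whereas the dimethylated form is known as an abundant state that is spread thinly over much of the inactive genome. Acetylation of the same residue, found at active promoters and enhancers, cannot occur on a methylated lysine.

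Each region carries a score that the authors deposited without a stated scale. Every score proved to be the log2 of a ratio of whole numbers, less a constant that is the same for all regions of a list. The ratio is read here as ChIP over input reads, although no label or header says so. On 3L the median ChIP term was 216 in replicate 1 and 209 in replicate 2, and the median input term was 109 and 141. These terms are in lowest form, so the true read numbers are these or a whole multiple. For the median region the counting error of the score was thus at most 0.17 (log2 scale) in replicate 1 and 0.16 in replicate 2. It covers counting alone, since copies made by PCR are not independent molecules. Depth of the whole libraries is not known from the lists.

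H3K27me2 was called on about the same share of 3L in both replicates. The regions covered 4.56 Mb in replicate 1 (20.2%) and 4.52 Mb in replicate 2 (20.04%), which averages to 20.1% ± 0.126 (SD, n = 2). By the same rule, 2L was covered to 17.6% ± 0.247, 3R to 19.7% ± 0.681 and X to 8.90% ± 4.01 (n = 2 each). No other arm, 2R among them, was included in the comparisons between arms. An arm is a single unit with no replicate arm, so differences between arms were not tested. On 3L the values of the replicates lay closer together than on 2L, 3R and X. This holds for the sum over the arm, since differences in segments of 2.5 Mb ran from -3.00 to 5.63 percentage points. The whole lists were also of nearly equal size, 10114 and 10115 regions, and the calling rule is not known. The list for the series covered 43.5% of 3L, so the level depends on the list, and the replicates are used below unless stated.

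The regions on 3L were short and close together. They numbered 78.3 per Mb in replicate 1 and 81.0 per Mb in replicate 2. The shortest was 1301 bp long in both replicates, and 1001 bp in the list for the series. The median length was 1986.5 bp in replicate 1 and 1929.5 bp in replicate 2, and 10% of regions were longer than 4572.5 and 4320 bp. The median gap to the next region was 3760 bp in replicate 1 and 3154 bp in replicate 2, and 22.6% and 24.1% of gaps were under 1 kb. Gaps were very uneven in size. The longest decile of gaps began at 25.2 kb in replicate 1 and 26.5 kb in replicate 2. Gaps of at least 50 kb between regions numbered 64 and 73, and together took 23.6% and 25.2% of the arm.

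The map was next drawn in 225 full windows of 100 kb, numbered from the distal end. The median window had a cover of 18.1% in replicate 1 and 18.2% in replicate 2. The spread around it was wide, with windows at percentiles 10 and 90 covered to 3.89% and 41.3% in replicate 1 and to 4.56% and 38.0% in replicate 2. The highest window reached 61.4% in replicate 1 and 60.02% in replicate 2. No called base was found in 4 windows in replicate 1 and 7 in replicate 2, of which 4 were the same (1.78% of 225). Windows empty in both replicates made up 4.34% of the 898 windows of 3L, 2L, 3R and X together.

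**Figure D1:**
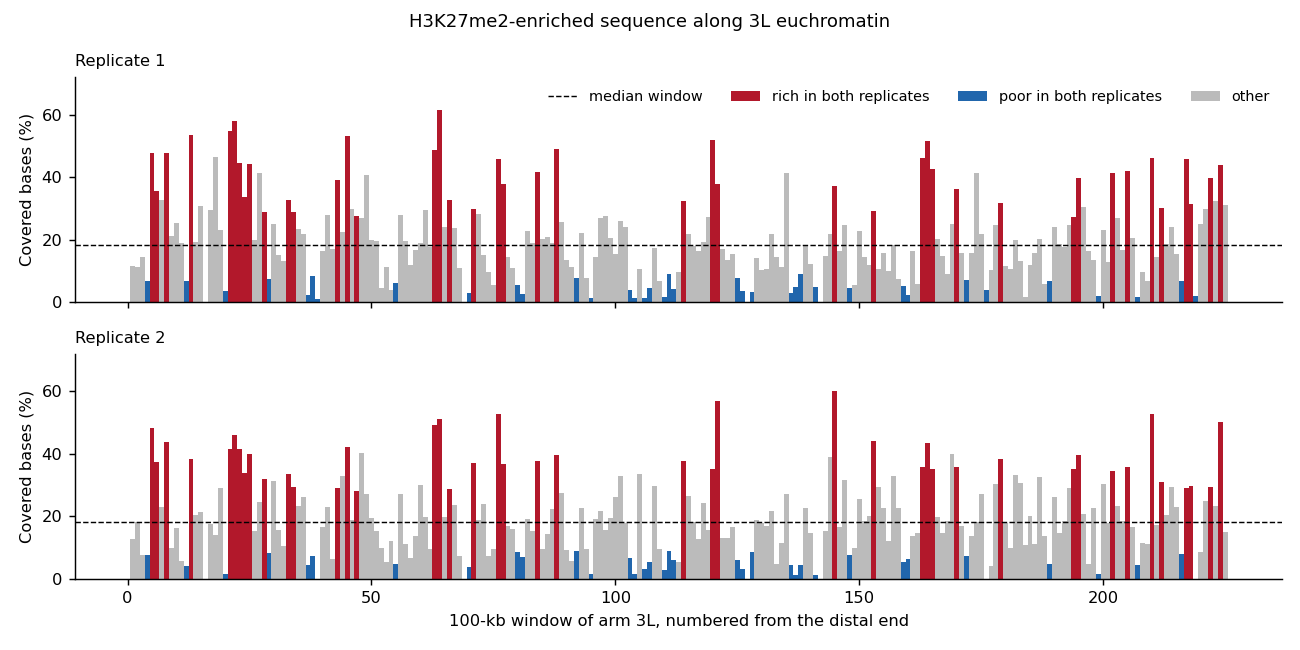
Share of covered bases in each 100-kb window of 3L euchromatin in replicate 1 (top) and replicate 2 (bottom). Bars are single windows and the dashed line is the median window. The 43 windows rich in both replicates and the 41 poor in both are coloured. No rich window lies between windows 88 and 114 or between windows 121 and 145.

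A window was called rich when its cover was at least 1.5 times the median window of 3L in each replicate, which is 27.2% and 27.3%. It was called poor at 0.5 times the median or less in each, which is 9.07% and 9.11%. Of the 225 windows, 43 were rich in both replicates (19.1%) and 41 were poor in both (18.2%). Over the 898 windows of 3L, 2L, 3R and X, with the thresholds of 3L, 14.7% were rich and 24.1% were poor. The background holds X, where 0.98% were rich and 43.1% poor. The shares on 2L were 14.8% rich and 18.6% poor, and those on 3R were 21.6% rich and 18.5% poor. So 3L lay between or near 2L and 3R. Another 39 windows were rich in 1 replicate alone and 24 were poor in 1 alone. No window was rich in 1 replicate and poor in the other.

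The rich windows held much of the mark. They made up 19.1% of the windows and held 38.6% of the covered bases of the windows in replicate 1 and 37.4% in replicate 2. The poor windows held 3.63% and 3.91%. This split follows from the way the classes were chosen and is given as a description. It came mainly with the number of regions, with 13.4 and 13.2 per rich window in replicates 1 and 2, against 2.15 and 2.24 per poor window. The regions of rich windows were also longer, with medians of 2156 and 2121 bp, against 1684 and 1597.5 bp in poor windows. Their median score was 0.65 and 0.62, against 0.63 and 0.57 in poor windows.

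The terms per kb of the called regions moved with the class. These terms are in lowest form, so the values are lower limits of read density. The median input term per kb was 65.04 in replicate 1 and 83.6 in replicate 2 in rich windows, against 52.3 and 74.5 in poor windows. The median ChIP term per kb was 136 and 130 in rich windows, against 110 and 112 in poor windows. The part of input density in the class of a window was not tested, since sequence outside regions has no read numbers in the lists.

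Rich windows formed 9 blocks of at least 2 neighbours, which took 22 windows, and 21 stood alone. The longest block was 500 kb long, from 2000001 to 2500000. Its 5 windows were covered to 54.7%, 57.9%, 44.6%, 33.7% and 44.1% in replicate 1 and to 41.4%, 46.1%, 41.6%, 33.7% and 40.04% in replicate 2. The block began abruptly at this scale. The window before it had a cover of 3.47% in replicate 1 and 1.55% in replicate 2, and the window after it to 20.01% and 15.2%.

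The block of highest cover was from 6200001 to 6400000, with 52.6% ± 3.44 (mean ± SD of the replicates, n = 2). It holds the window of highest mean cover on the arm, 6300001 to 6400000, with 61.4% in replicate 1 and 51.1% in replicate 2. Next to these came the block from 11900001 to 12100000 with 45.4% ± 0.923 (n = 2). Its small SD hides opposite differences, since its windows had 51.9% and 37.6% in replicate 1 and 35.1% and 57.1% in replicate 2. Then came the 500-kb block from 2000001 with 43.8% ± 4.53 (n = 2) and the block from 7500001 to 7700000 with 43.3% ± 2.03 (n = 2). The 300-kb block from 16200001 to 16500000 followed with 42.3% ± 6.13 (n = 2). Near the distal end, the block from 400001 to 600000 was covered to 42.3% ± 0.870 (n = 2). The remaining 3 blocks lay at 3200001 to 3400000, 19300001 to 19500000 and 21600001 to 21800000, and had means of 31.03%, 35.5% and 33.9%. Which genes lie in the blocks was not analysed here.

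Of the 5 windows of highest mean cover, 4 lay in these blocks. After window 6300001 to 6400000 came 2100001 to 2200000, with 57.9% in replicate 1 and 46.1% in replicate 2. Window 20900001 to 21000000 stood alone, with 46.1% and 52.8%. Window 7500001 to 7600000 had 45.9% and 52.9%, and window 6200001 to 6300000 had 48.6% and 49.2%. Which replicate was higher thus varied from window to window. These 5 windows held between 13 and 20 regions in each replicate.

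Poor windows formed 10 blocks with 25 windows, and 16 stood alone. The longest poor block was 400 kb long, from 12400001 to 12800000, and had a cover of 3.62% in replicate 1 and 4.40% in replicate 2. The poorest blocks were 14000001 to 14200000, with 1.57% ± 1.25, and 6800001 to 7000000, with 1.63% ± 0.267 (n = 2 each). Poor blocks of 300 kb were found at 3600001 to 3900000 (3.87% ± 0.0577), 10900001 to 11200000 (5.40% ± 0.692) and 13500001 to 13800000 (4.48% ± 1.51, n = 2 each). The other 4 poor blocks, at 7900001 to 8100000, 10200001 to 10400000, 10500001 to 10700000 and 15800001 to 16000000, had means from 3.30% to 5.92%. The 4 windows without a called base in either replicate were 1500001 to 1600000, 6800001 to 6900000, 12600001 to 12700000 and 14100001 to 14200000. Window 3800001 to 3900000 came next, with 0.93% in replicate 1 and 0% in replicate 2. Its cover in replicate 1 was the end of a single region of 1855 bp that starts before the window.

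Rich and poor windows could be direct neighbours. A poor window adjoined 7 of the 43 rich windows. At 21600001 to 21800000, a rich block was followed by a window covered to 1.82% in replicate 1 and 0% in replicate 2.

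Likeness between windows ended within a short distance. Cover of a window and of the next one correlated with a Pearson r of 0.336 in replicate 1 and 0.216 in replicate 2 (224 pairs). Between windows 200 kb apart, r was 0.12 in replicate 1 and -0.034 in replicate 2 (223 pairs). Taken across the libraries, r between neighbours was 0.252 and 0.241, and at 200 kb it was 0.011 and 0.029. From 300 kb to 1500 kb these values across the libraries stayed between -0.126 and 0.148. Windows of an arm share both libraries and are not replicates, so these values are descriptions with no test.

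On a coarser scale, cover was higher towards both ends of the stretch than in its middle. In 9 segments of 2.5 Mb, the most distal one had the highest mean, 28.8% in replicate 1 and 23.2% in replicate 2 (26.01% ± 3.98, SD, n = 2). The sixth, from 12500001 to 15000000, had the lowest, 13.2% in replicate 1 and 15.4% in replicate 2 (14.3% ± 1.57, n = 2). The most proximal one, from 20000001 to 22500000, was at 24.6% and 22.6% (23.6% ± 1.40, n = 2). Both replicates placed the lowest segment at the same site, and the values of that segment lay below those of all other segments in each replicate. The list for the series gave the same lowest segment, with 37.6%, and its highest was the seventh, with 47.3%.

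**Figure D2:**
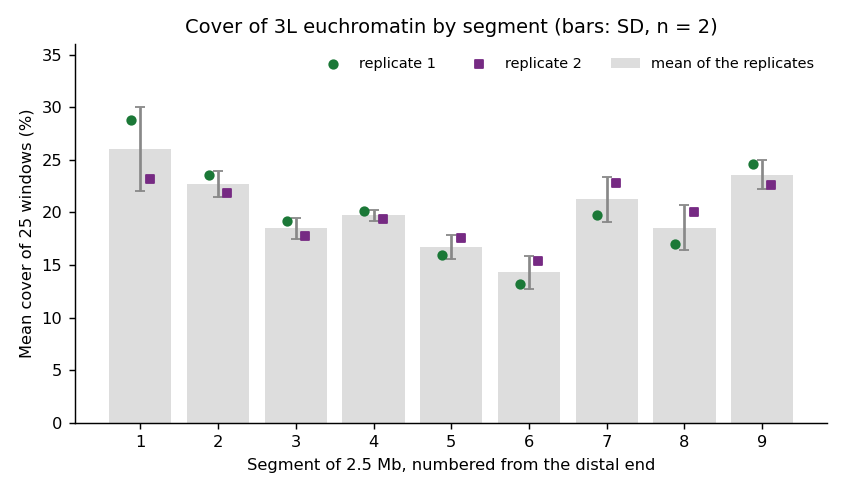
Mean cover of the 25 windows in each 2.5-Mb segment of 3L, numbered from the distal end. Grey bars are means of the replicates with their SD (n = 2), and points are the replicates. The sixth segment is lowest, at 14.3%, and the most distal one highest, at 26.01%.

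In the fifth and sixth segments together, between 10 and 15 Mb, 17 of 50 windows were poor and 4 were rich, whereas of the other 175 windows 24 were poor and 39 rich. This stretch was chosen after its values were seen. It held 6 of the 10 poor blocks and 1 of the 9 rich ones. Mean cover was 15.5% ± 1.37 between 10 and 15 Mb and 21.5% ± 0.557 over the other windows (n = 2 each).

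The replicates differed along the arm in a broad pattern. Replicate 1 minus replicate 2 was 5.63 percentage points in the most distal segment, and 1.75, 1.40 and 0.76 in the next 3. It was -1.64, -2.22, -3.00 and -3.00 in the fifth to eighth segments and 1.98 in the most proximal one. Differences of windows 300 and 400 kb apart correlated with an r of 0.219 and 0.203, the highest values from 100 to 1500 kb. Cover itself showed 0.057 and 0.058 in replicate 1 and -0.034 and -0.062 in replicate 2 at these distances. At 100 kb the order was the reverse, with 0.190 for the difference and 0.336 and 0.216 for cover in replicates 1 and 2. In replicate 2 the most distal segment, at 23.2%, was close to the seventh, at 22.7%, and to the most proximal one, at 22.6%.

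The replicates ranked the windows alike. Cover of the 225 windows correlated with a Pearson r of 0.828 and a Spearman's rho of 0.837, against a Pearson r of 0.851 on 2L (210 windows), 0.882 on 3R (259) and 0.724 on X (204). The median absolute difference between replicates was 4.45 percentage points on 3L. With smaller windows the likeness fell, to an r of 0.766 at 20 kb (1127 windows), 0.704 at 10 kb (2254) and 0.627 at 5 kb (4508). Spearman's rho at these sizes was 0.758, 0.686 and 0.618. With windows of 200 kb r was 0.841 and rho 0.822 (112 windows), and with windows of 500 kb r was 0.847 and rho 0.759 (45 windows).

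**Figure D3:**
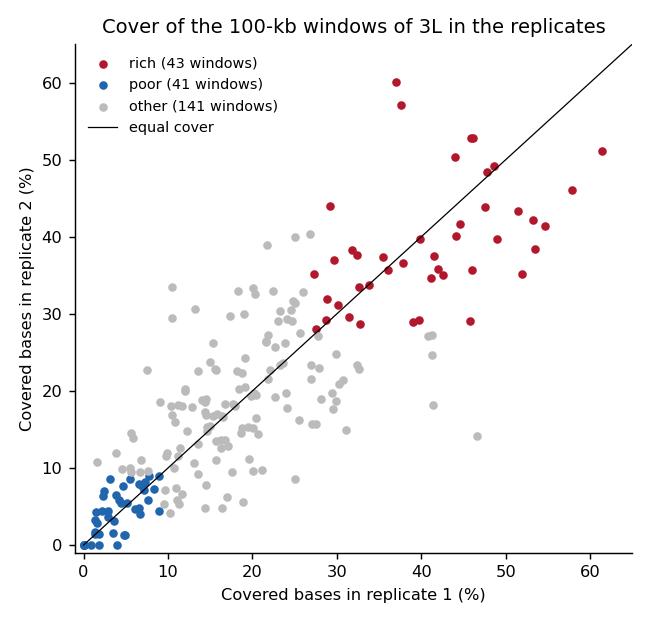
Covered bases in replicate 1 (x) and replicate 2 (y), in percent, for the 225 windows of 100 kb on 3L, coloured by class; the line is equal cover. Windows rich in 1 replicate and poor in the other are absent, and the Pearson r is 0.828.

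A few windows differed strongly. The largest difference was at 1700001 to 1800000, with 46.6% in replicate 1 and 14.2% in replicate 2. Replicate 1 held 10 regions there, the longest of 12634 bp, and replicate 2 held 6, the longest of 4132 bp. Window 17300001 to 17400000 followed, with 41.4% and 18.2%. In the next 3 replicate 2 was higher. They were 14400001 to 14500000 with 37.02% in replicate 1 and 60.02% in replicate 2, 10400001 to 10500000 with 10.5% and 33.4%, and 12000001 to 12100000 with 37.6% and 57.1%. The window from 10400001 lies between a pair of poor blocks, and it is above the threshold for rich in replicate 2 only.

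Base by base, the replicates shared 2.40 Mb of 3L. That is 52.7% of the bases called in replicate 1 and 53.2% of those in replicate 2. The Jaccard index, the bases in both over the bases in either, was 0.360, whereas lists of this cover placed without relation would give 0.112. The index was 0.326 on 2L, 0.361 on 3R and 0.150 on X, where the value without relation is 0.0965, 0.109 and 0.0416. In rich windows of 3L it was 0.480, with 0.250 expected from their cover, and in poor windows it was 0.166, with 0.0212 expected. So the sparse regions of the poor windows also met at the same positions more often than their cover alone would give.

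Counted as regions, 1177 of the 1766 in replicate 1 touched replicate 2 by at least 1 bp (66.6%), and 1179 of the 1826 in replicate 2 touched replicate 1 (64.6%). Over 3L, 2L, 3R and X together the shares were 58.6% and 62.6%. On single arms they were 60.04% and 59.8% on 2L, 64.6% and 65.9% on 3R, and 32.2% and 53.5% on X. Sharing went with length. In replicate 1, 85.5% of the longest quartile of regions (2814 bp and over) and 52.9% of the shortest (1548 bp and under) were shared. In replicate 2, the shares were 88.0% and 44.4%. Longer regions also span more sequence in which to meet a region of the other list, and this was not corrected for. By score, 76.0% of the highest quartile and 62.9% of the lowest were shared in replicate 1, and 82.9% and 54.05% in replicate 2.

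**Figure D4:**
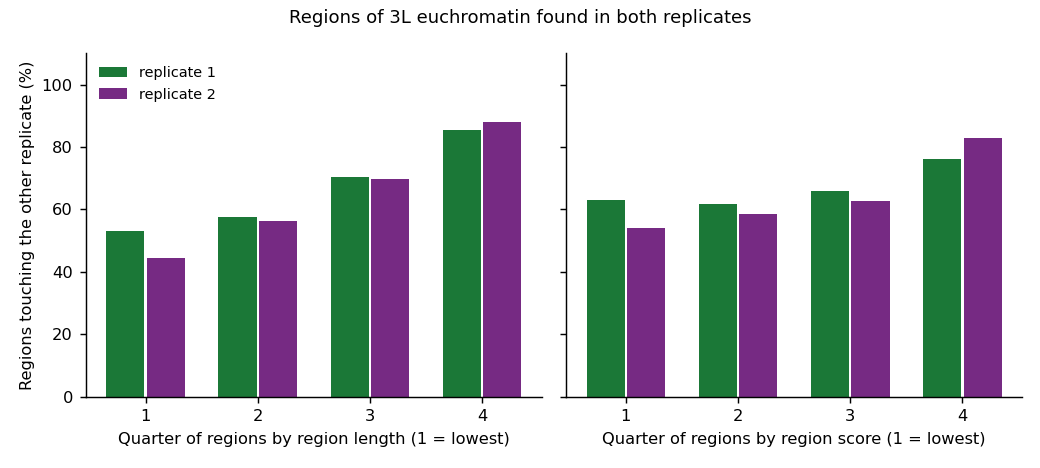
Share of the regions of 3L that touch the other replicate by at least 1 bp, by quartile of length (left) and of score (right), for each replicate. The longest quartile is shared to 85.5% in replicate 1 and 88.0% in replicate 2.

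Regions called in a single replicate were shorter than shared ones, and most lay within 10 kb of the other replicate. Their median length was 1734 bp in replicate 1 and 1650 bp in replicate 2, against 2148 and 2123 bp for shared regions. The median distance from such a region to the other replicate was 2761 bp in replicate 1 and 2559 bp in replicate 2, and 82.2% and 86.2% were within 10 kb. Regions were close together on the arm in any case, with median gaps of 3760 and 3154 bp. The share of the whole stretch within 10 kb of a region was not computed. These distances therefore do not show that such regions lie nearer the other replicate than other sequence does. The list for the series held nearly all regions called in a single replicate, since 23 of the 589 from replicate 1 and 11 of the 647 from replicate 2 touched none of its regions.

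For 709 pairs the match was one to one. Their starts differed by a median of 548 bp and their ends by 540 bp, with no shift to one side (medians of 4 and -2 bp). Both ends were within 500 bp in 28.2% of the pairs. The shorter region of a pair lay inside the longer one by a median of 95.1% of its length. Scores of the pairs correlated with a Spearman's rho of 0.286, and lengths with 0.289. The median score of the pairs was 0.65 in replicate 1 and 0.60 in replicate 2. After removal of the median difference, the scores of the median pair differed by 0.073 on the log2 scale. The combined counting error had a median of at most 0.25, an upper limit since the terms are in lowest form. Within 1 combined error lay 93.9% of the pairs, a share that is likewise an upper limit.

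Broad domains were taken as regions of at least 10 kb in the list for the series. On 3L there were 153 among 2743 regions (5.58%), against 4.27% of the 10755 regions of 3L, 2L, 3R and X together. The share was 4.23% on 2L, 5.13% on 3R and 1.58% on X. The domains depend on this list, since the replicates' own lists held 21 and 13 regions of at least 10 kb on 3L. In the list for the series they spanned 2.46 Mb, or 10.9% of the stretch and 25.1% of the bases that this list covers there. Their median length was 14068 bp, 28 reached 20 kb and 7 reached 30 kb. The centres of neighbouring domains were a median of 55.9 kb apart.

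Each replicate filled the domains in part, and the filled parts overlapped in part. The median domain had a cover of 66.8% in replicate 1 and 66.2% in replicate 2. A median of 43.6% of a domain was covered in both and 87.9% in either, where 40.8% in both would follow from the covers alone. Over all domains, 69.1% of the bases called in replicate 1 were also called in replicate 2, and 69.9% of those in replicate 2 also in replicate 1. Without relation, these shares would be near the cover of the domains in the other replicate, with medians of 66.2% and 66.8%. Both replicates touched 151 of the 153 domains, and 93 were more than 50% covered in each. Shorter regions of the list were touched by both replicates in 26.3% of cases and by neither in 38.8%. A domain spans more sequence in which to meet a region of a replicate, and this was not corrected for. These shares therefore do not show whether domains are more reproducible than shorter regions. Median scores were 0.57 for domains and 0.43 for the 2590 shorter regions. The centres of 86 domains lay in rich windows, 67 in other windows and 0 in poor windows. Since the list contains nearly all called bases of the replicates, domains and rich windows are not independent.

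The longest domain was at 6257841 to 6322781, 64.9 kb long, with a score of 0.58 from terms of 8645 and 5081. Replicate 1 covered 59.7% of it with 16 regions and replicate 2 covered 70.5% with 12. The longest of these pieces was 4920 bp in replicate 1 (6287526 to 6292445, score 0.81) and 7571 bp in replicate 2 (6268100 to 6275670, score 0.74). The widest break between pieces was 5733 bp in replicate 1 and 5794 bp in replicate 2. So each replicate's list held the domain as a close series of regions. Bases called in both replicates made up 40.01% of it, and bases called in either made up 90.2%. Most bases left uncalled in 1 replicate were thus called in the other. Whether the domain itself is broken was not tested.

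The next domains were more densely filled. The domain at 16266218 to 16312065 had a cover of 79.1% in replicate 1 and 70.8% in replicate 2. The domain at 446607 to 490953 had 88.2% and 84.0%, the highest of the 8 longest, with a score of 0.70. Replicate 1 built it from 5 regions, all of at least 5466 bp, and replicate 2 from 6, among them the longest region of that replicate on 3L (448572 to 465010, 16439 bp, score 0.77). The domains at 7556725 to 7588376, 20948719 to 20980210, 2118464 to 2149097 and 8354194 to 8384142 had means of 74.0%, 74.9%, 79.3% and 69.5%. The last of these holds the longest region of replicate 1, 8368948 to 8384140, of 15193 bp. The domain at 4870034 to 4900076 had 65.4% in replicate 1 and 48.9% in replicate 2, and of the 8 longest it alone was centred outside a rich window.

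Cover outside the domains stayed above that of the arm up to 60 kb away. In the 5 kb inside an edge it was 61.8% in replicate 1 and 60.7% in replicate 2. It was 17.6% and 18.04% in the first 2 kb outside, where an uncalled gap follows by the definition of an edge. Between 5 and 10 kb outside it was 33.4% and 30.7%, between 20 and 40 kb 31.1% and 28.9%, and between 40 and 60 kb 27.8% and 26.5%, against 20.2% and 20.04% over the whole stretch. Flanks of neighbouring domains overlap and include those domains.

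**Figure D5:**
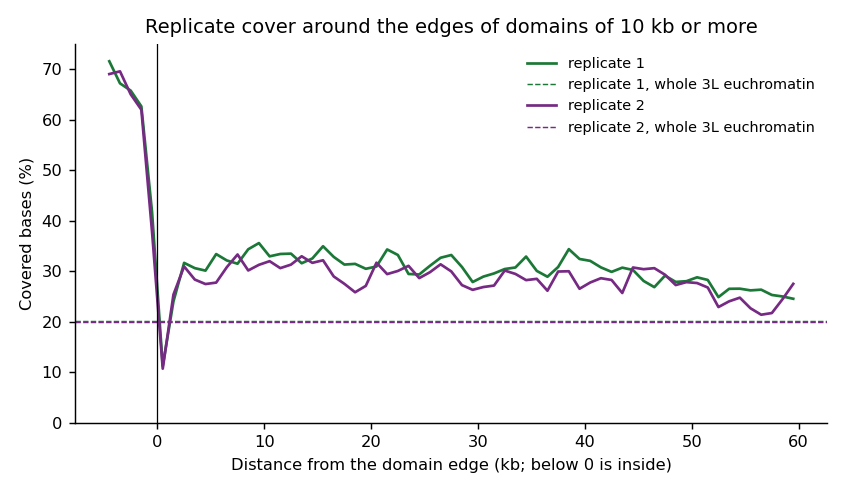
Mean cover in 1-kb steps from the edges of the 153 domains of 3L, from 5 kb inside to 60 kb outside, for each replicate. Dashed lines are the cover of the whole stretch, 20.2% and 20.04%. Outside the dip next to the edge, cover stays above these lines up to 60 kb.

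At the other extreme were 5 gaps of over 100 kb in the list for the series. The longest were 201513 bp from 6756693 to 6958205 and 201416 bp from 12565388 to 12766803. The others were 112823 bp from 14075209 to 14188031, 111522 bp from 3805084 to 3916605 and 107696 bp from 8960058 to 9067753. Inside the longest gap, replicate 1 covered 0.0258% and replicate 2 covered 0%, and in the next one the values were 0% and 0.0228%. In each case this was the end of a region that crosses the edge of the gap.

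The replicates placed the edges of 3 of the gaps close together. For the gap at 8960058 to 9067753, the regions before it ended at 8959967 in replicate 1 and 8959945 in replicate 2, and those after it began at 9067756 and 9067994. For the gap from 12565388, they ended at 12565359 and 12564880 and began again at 12767018 and 12766758. For the longest gap they ended at 6754444 and 6752125 and began at 6958154 and 6959382. The other gaps were wider in the replicates, for instance 133573 bp in replicate 1 and 137373 bp in replicate 2 at 14075209 to 14188031. In the 50 kb on either side of the 5 gaps, the lowest and highest cover were 3.71% and 22.2% in replicate 1, and 2.73% and 24.4% in replicate 2.

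Gaps found in 1 replicate were sparse in the other. The 12 gaps of at least 100 kb in replicate 1, 1.64 Mb in all, were covered to 1.47% in replicate 2, against 20.04% over the whole stretch. The 13 in replicate 2, 1.84 Mb, were covered to 2.16% in replicate 1, against 20.2%. For gaps of at least 50 kb, counted up to the ends of the stretch, the values were 3.54% in replicate 2 (65 gaps of replicate 1) and 4.19% in replicate 1 (74 gaps of replicate 2). A gap is sequence without a call, and the lists do not show where reads could be aligned.

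The top scores of the lists were at different sites. Longer regions scored higher on 3L, with a Spearman's rho across regions of 0.620 in replicate 1 and 0.611 in replicate 2, and regions are not independent replicates. In replicate 1 the top score was 2.30 at 11609033 to 11611234, from terms of 58 and 9, and replicate 2 held no region there. The next were 1.45 and 1.35 at 5458146 to 5459905 and 5455925 to 5457551, also without a region in replicate 2. In replicate 2 the top scores were 1.02 at 11953918 to 11958214, from terms of 559 and 277, and 1.01 at 17861552 to 17864333, and replicate 1 covered 96.3% and 51.5% of these. The 5 highest scores of the list for the series, 1.30 to 3.40, belonged to regions of 1001 to 1713 bp that touched neither replicate. Those of 1001, 1034 and 1075 bp were shorter than the shortest region of either replicate on 3L, 1301 bp, so neither replicate's list holds regions that short. The highest, at 44963 to 46485, had terms of 12 and 1 and a counting error of up to 1.502 on the log2 scale.

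At the inner limit of the stretch, the last region inside was 22541392 to 22545395 with a score of 0.81 in replicate 1 and 22531871 to 22533381 with 0.58 in replicate 2. The first outside was 22546222 to 22548092 with 0.60 in replicate 1 and 22545707 to 22547029 with 0.57 in replicate 2. The regions inside had median scores of 0.64 in replicate 1 and 0.60 in replicate 2, against 0.69 and 0.65 for the 210 and 246 regions outside.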

How the data were processed

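Enriched regions came from 3 lists, 1 for each of 2 ChIP replicates and 1 for the series, and none belongs to an input. The submitters' processing notes list Bowtie 0.12.7. Per the file headers, the build is FlyBase release 5. How regions were called, at which threshold, and how the replicates were merged for the series is not given in the sources used here. The score deposited by the authors has no stated scale. Scores were compared with log2 ratios of whole numbers (relative tolerance 1e-12, 1 constant per list), and 100% matched in each list. Cover was counted base by base with numpy 2.4.6 and pandas 2.3.3, and correlations came from scipy 1.17.1. Window cover, overlap and the recovery of ratios were tested on simulated data. With 1 group of 2 samples no test was possible, so values are means ± SD or descriptions. Gene annotation at hand was of release 6, so genes and sequence at these positions, and the gene lists planned, were not analysed here. Windows, classes, named regions (the 8 longest and 5 highest-scoring, the 5 longest gaps, the 5 windows of highest, lowest and most different cover, and every block) and settings were chosen with earlier results of these data known.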

Additional observations from a re-analysis of the deposited data

How the results depend on the processing

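No paired analysis was possible because only the ChIP samples have a list, and the inputs that carry the same numbers enter through it. The share of 3L in enriched regions, 20.1%, was 10.7% with regions above the median score of their list, 43.5% in the list for the series and 21.2% with the last 2 Mb kept in. It ran from 20.04% to 20.2% with 1 replicate left out. Windows of 50 kb gave 111 rich and 95 poor of 450, and windows of 200 kb gave 22 rich and 13 poor of 112. With 100-kb windows, between 31 and 64 were rich and between 31 and 54 poor in all other settings, including 61 to 64 rich and 52 to 54 poor with 1 replicate left out. Of the 43 rich windows, 23 were also rich in the list for the series, and of the 41 poor ones 32 were also poor. The Jaccard index of 0.360 was 0.273 above the median score and 0.372 with regions closer than 1 kb joined. The window correlation of 0.828 was 0.813 at 50 kb, 0.841 at 200 kb, 0.862 with windows shifted by 50 kb and 0.740 above the median score. The 153 domains became 290 after joining below 1 kb, 28 at a minimum of 20 kb, and 13 to 21 when a single replicate's own list was used. The share of shared regions, 65.6%, was 67.1% after joining and 33.5% with a reciprocal overlap of 50%. The causes were not tested. Library totals are not in the lists, and with 2 replicates of 1 group the SD rests on a single difference.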
